A study of Mus musculus with 201 samples.

Results

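The dentate granule cell (DGC) is the principal excitatory neuron of the dentate gyrus, and a small set of genes is used to recognize the mature cell. The values here describe 9 such genes, *Prox1*, *Bcl11b*, *Rfx3*, *Glis3*, *C1ql2*, *C1ql3*, *Calb1*, *Dsp* and *Tdo2*, which were taken by name from a fixed list. That list was chosen with earlier results of these data known. All 9 were found in each set of tables, among 42790 symbols for whole cells, 42802 for nuclei after exposure to an unfamiliar enclosure (NE) and 42774 for home cage (HC) nuclei. Their level and detection are described in 5 groups of single cells and nuclei.

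Whole cells came from *Prox1*-GFP mice that received saline or pentylenetetrazole (PTZ), a GABA(A) receptor antagonist that causes seizures, and were killed 1 h later. These cells were freed with papain and sorted for GFP, so the promoter of one of the 9 genes chose them. Nuclei came from wild-type C57BL/6 mice, 8-week-old females by the study's methods, by Dounce homogenization without protease. The NE exposure was brief and preceded collection by about an hour. NE nuclei came from a shared isolation and were sorted for PROX1 protein and as FOS+ or FOS-, FOS being an immediate early transcription factor that marks recent neuronal activity. HC nuclei carried NEUN and PROX1 and were amplified on a microfluidic chip, whereas the other libraries followed Smart-seq2. The series text speaks of a single mouse for each preparation, the study describes hippocampi pooled within whole-cell groups, and the labels name no animal. Each group is therefore 1 sample, cells are not replicates of a treatment, no test was run, and SD stands for the spread between cells. Titles of the whole cells end in one code for PTZ and another for saline, and whatever these codes mark cannot be told apart from the treatment. Titles of NE nuclei hold a code of a letter and a number. The number is lower for every FOS- nucleus than for any FOS+ nucleus, and whatever it marks cannot be told apart from the sort group. All 5 neuronal markers checked against the label, *Rbfox3*, *Snap25*, *Syt1*, *Map2* and the glutamatergic *Slc17a7*, were detected in some cells of every group. In HC nuclei, however, *Rbfox3* was found in only 11 of 23 and *Slc17a7* in only 9 of 23.

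After filtering on depth and genes detected, 38 of 47 cells after saline, 30 of 35 after PTZ, 40 of 48 FOS+ nuclei, 41 of 48 FOS- nuclei and all 23 HC nuclei were kept. Total counts per cell ranged from 401331 to 2696040 in saline-treated cells, from 67212 to 5129240 in PTZ-treated cells, from 80096 to 1035170 in FOS+ nuclei, from 63775 to 1060520 in FOS- nuclei and from 107647 to 278779 in HC nuclei. A gene counted as detected at a TPM (transcripts per 1e6) above 1, a unit that divides reads by transcript length and by the total of the cell. HC nuclei had 3237 ± 371 (SD, n = 23) genes detected, against group means between 6185 and 6281 in the other groups. The tables of whole cells, NE nuclei and HC nuclei differ in preparation, platform and read type. A difference between tables cannot be told apart from these and is given as a description. Genes were called only within a table.

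PROX1, BCL11B, RFX3 and GLIS3 are transcription factors. PROX1 sets and maintains granule cell fate, BCL11B (also called CTIP2) acts in the postmitotic development of these neurons, RFX3 is known for its part in ciliary genes, and GLIS3 is a zinc finger factor of the Krüppel-like type. C1QL2 and C1QL3 are secreted proteins that organize synapses, and at mossy fibre synapses, which granule cells make in CA3, they bind neurexin-3 and kainate receptors. CALB1 (calbindin) is a cytoplasmic calcium buffer that mature granule cells hold in large amounts. DSP (desmoplakin) links desmosomes to the cytoskeleton in epithelia, and TDO2 opens the tryptophan ring in the kynurenine pathway. The last 2 are known as markers of mature granule cells although neither process is typical of neurons.

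The *Calb1* locus is shown first, because its annotated transcripts bear on the largest contrast between whole cells and nuclei. In GRCm38 (GENCODE M21) *Calb1* (ENSMUSG00000028222.2) lies on the plus strand of chr4:15881264-15908064. The protein-coding transcript Calb1-201 has 11 exons and 4222 bases. A pair of shorter transcripts are annotated as retained introns, one with 701 and the other with 736 bases, of which 196 and 520 bases lie in introns of Calb1-201. Both run past the end of exon 5 into intron 5, where a run of 32 A begins at base 75 of the intron. The 701-base transcript ends inside that run, after 18 of its A. The plus strand of chr4:15895629-15895821 (GRCm38), 193 bases from exon 5 to 30 bases past the run, reads as follows, with exon 5 and the run of A in capitals and the intron in lower case.

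Calb1 exon 5 and start of intron 5: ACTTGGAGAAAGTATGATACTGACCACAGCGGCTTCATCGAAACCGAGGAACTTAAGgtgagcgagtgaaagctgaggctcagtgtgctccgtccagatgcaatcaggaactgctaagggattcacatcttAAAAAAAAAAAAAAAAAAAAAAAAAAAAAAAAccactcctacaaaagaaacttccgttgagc

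*Calb1* was detected in every NE nucleus, 40 of 40 FOS+ (100%, exact 95% interval 91.2 to 100%) and 41 of 41 FOS- (100%, interval 91.4 to 100%). After saline it was detected in 33 of 38 cells (86.8%, interval 71.9 to 95.6%), after PTZ in 23 of 30 (76.7%, interval 57.7 to 90.1%), and in 16 of 23 HC nuclei (69.6%, interval 47.1 to 86.8%). These intervals, like all below, cover only the error of counting cells, taken as independent draws. The cells of a group shared a preparation, so variation between animals or preparations is not covered. Separately, the libraries carried no molecular identifiers, so reads do not count molecules independently.

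Its level in saline-treated cells ran from 0 through a median of 226 to 762 TPM, and in PTZ-treated cells from 0 through 187 to 668 TPM. In FOS+ nuclei the lowest, median and highest values were 837, 3825 and 16097 TPM, and in FOS- nuclei 940, 5600 and 24658 TPM. The lowest of the 81 NE nuclei thus lay above the highest of the 68 whole cells. The share of all genes separated in this way between the tables was not computed, so this is a description only. HC nuclei spanned both ranges, from 0 through 188 to 5777 TPM.

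On the scale of counts per 1e6 counts (CPM), which does not divide by length, the gap was smaller and the ranges overlapped. Median values were 446 CPM in saline-treated cells, 443 CPM in PTZ-treated cells, 1771 CPM in FOS+ nuclei, 2645 CPM in FOS- nuclei and 104 CPM in HC nuclei. The highest saline-treated cell held 2152 CPM and the lowest FOS- nucleus 422 CPM. The difference between the scales lies in the transcript length that RSEM, the program behind the tables, gave the gene in each cell.

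That length can be recovered from the ratio of count to TPM, scaled in each cell by the 6499 to 6523 genes of a table that have a single annotated transcript. For *C1ql2*, whose only transcript has 2000 bases, it came to a median between 1981 and 1993 bases in all 5 groups. For *C1ql3*, with a single transcript of 2535 bases, the median was between 2537 and 2543 bases. For *Calb1* the median was 4104 bases in saline-treated cells (31 cells with enough counts) and 4229 bases in PTZ-treated cells (21 cells), near the coding transcript. It was 713 bases in FOS+ nuclei and 720 bases in FOS- nuclei, near the retained-intron transcripts. A length under 1000 bases was found in 36 of 40 FOS+ and 38 of 41 FOS- nuclei and in 0 whole cells, of which 52 could be measured. In HC nuclei the length was under 1000 bases in 5 of 11 and over 2000 bases in 5 of 11, with a median of 1274 bases. HC and whole-cell libraries were both read from paired ends and NE libraries from single ends, and the part of read type in the NE lengths was not tested. The TPM of *Calb1* was thus divided by different lengths in NE nuclei and in whole cells.

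**Figure D1:**
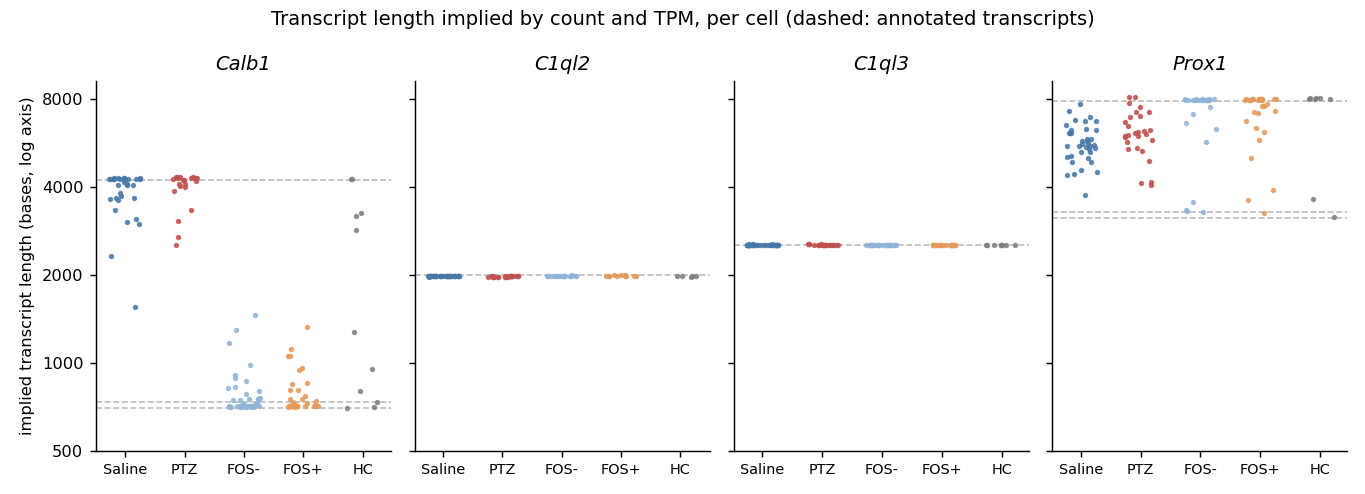
Transcript length in bases (log axis) implied by count and TPM for each cell or nucleus with enough counts, by group, for *Calb1*, *C1ql2*, *C1ql3* and *Prox1*, with dashed lines at the annotated transcript lengths. *Calb1* lies near 4222 bases in whole cells and near 701 to 736 bases in most NE nuclei, while *C1ql2* stays at 2000 bases and *C1ql3* at 2535 bases in all groups.

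The transcription factors differed among themselves in how widely they were detected. *Prox1* (ENSMUSG00000010175.13, chromosome 1) was detected in 38 of 38 saline-treated and 30 of 30 PTZ-treated cells, in 33 of 40 FOS+ nuclei (82.5%, interval 67.2 to 92.7%), in 34 of 41 FOS- nuclei (82.9%, interval 67.9 to 92.8%) and in 14 of 23 HC nuclei (60.9%, interval 38.5 to 80.3%). The sort on its promoter or protein was made to favour such cells. Its lowest, median and highest values were 137, 355 and 2109 TPM in saline-treated cells and 3.56, 306 and 2008 TPM in PTZ-treated cells. In nuclei they were 0, 123 and 371 TPM for FOS+, 0, 49.6 and 462 TPM for FOS-, and 0, 10.9 and 319 TPM for HC. Whole cells were the higher on this scale, although the ranges of whole cells and nuclei overlapped. The implied length of *Prox1* was 5600 bases in saline-treated and 6094 bases in PTZ-treated cells, and 7990 and 7994 bases in FOS+ and FOS- nuclei, where the longest annotated transcript has 7913 bases.

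Nuclei in which *Prox1* RNA was not detected still carried other members. Of the 7 such FOS+ nuclei, 4 held at least 3 of the other 8 genes, and all 7 such FOS- nuclei and 6 of 9 such HC nuclei did so. Among nuclei with *Prox1* RNA, 32 of 33 FOS+, 32 of 34 FOS- and 12 of 14 HC nuclei held at least 3 of the other 8. All 7 FOS+ and all 7 FOS- nuclei without *Prox1* RNA had *Calb1*, but so did every NE nucleus.

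*Rfx3* (ENSMUSG00000040929.17, chromosome 19) was the most even of the 4 factors across groups. It was detected in all 68 whole cells, in 39 of 40 FOS+ nuclei, 37 of 41 FOS- nuclei and 19 of 23 HC nuclei. Median levels were 161 TPM in saline-treated cells, 148 TPM in PTZ-treated cells, 230 TPM in FOS+ nuclei, 233 TPM in FOS- nuclei and 127 TPM in HC nuclei, and the ranges of all 5 groups overlapped.

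*Bcl11b* (ENSMUSG00000048251.15, chromosome 12) was present after saline in 33 of 38 cells (86.8%, interval 71.9 to 95.6%) and after PTZ in 22 of 30 (73.3%, interval 54.1 to 87.7%). It was detected in 28 of 41 FOS- nuclei (68.3%, interval 51.9 to 81.9%), 13 of 40 FOS+ nuclei (32.5%, interval 18.6 to 49.1%) and 8 of 23 HC nuclei (34.8%, interval 16.4 to 57.3%). The intervals of the FOS- and FOS+ nuclei did not overlap. The share of all genes whose intervals did not overlap was not computed, so this is a description only. *Glis3* (ENSMUSG00000052942.13, chromosome 19) was found in 22 of 38 cells after saline, in 10 of 30 after PTZ, and in 22 of 40 FOS+, 24 of 41 FOS- and 8 of 23 HC nuclei. Its median was at most 6.75 TPM in any group, while single cells reached 640 TPM.

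The synapse organizers differed from each other between whole cells and nuclei. *C1ql2* (ENSMUSG00000036907.9, chromosome 1) was the highest member of saline-treated cells, with 0.83, 703 and 2300 TPM as the lowest, median and highest values, and was detected in 37 of 38 (97.4%, interval 86.2 to 99.9%). In PTZ-treated cells it ran from 0 through 545 to 1942 TPM and was detected in 24 of 30 (80.0%, interval 61.4 to 92.3%). In nuclei its medians were 0 TPM (FOS+, highest 453), 23.8 TPM (FOS-, highest 1678) and 0 TPM (HC, highest 1715), with detection in 18 of 40, 25 of 41 and 7 of 23. *C1ql3* (ENSMUSG00000049630.6, chromosome 2) was detected in 35 of 38 and 24 of 30 whole cells and in 28 of 40 FOS+, 37 of 41 FOS- and 18 of 23 HC nuclei. Its medians were 57.9 TPM in saline-treated and 51.5 TPM in PTZ-treated cells, against 54.2 TPM in FOS+, 114 TPM in FOS- and 55.4 TPM in HC nuclei. Within saline-treated cells the median of *C1ql2* was thus above that of *C1ql3*, and in each group of nuclei it was below. Of all 31-base words of *C1ql3*, 60.7% are shared with Gm37811, a gene annotated on the opposite strand, and the libraries do not mark strand. Gm37811 held 0.475% of the reads of the pair in FOS- nuclei and 15.3% in FOS+ nuclei, while Gm37824, which overlaps *C1ql3* by 80 bases on the opposite strand, held 13.6% of its pair in FOS-, 4.08% in FOS+ and 35.5% in HC nuclei. The values of *C1ql3* are uncertain for both overlaps. *C1ql2* and *C1ql3* share less than 1% of these words with each other.

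*Dsp* (ENSMUSG00000054889.10, chromosome 13) and *Tdo2* (ENSMUSG00000028011.16, chromosome 3) were found in a minority of cells. *Dsp* was detected in 10 of 38 cells after saline, in 9 of 30 after PTZ, and in 11 of 40 FOS+, 9 of 41 FOS- and 3 of 23 HC nuclei, and its highest value in a group was between 64.8 and 232 TPM. *Tdo2* was detected in 17 of 38 (44.7%, interval 28.6 to 61.7%) and 13 of 30 (43.3%, interval 25.5 to 62.6%) whole cells, and in 8 of 40 FOS+ (20%, interval 9.05 to 35.7%), 7 of 41 FOS- (17.1%, interval 7.15 to 32.1%) and 1 of 23 HC nuclei (4.35%, interval 0.11 to 21.9%). Where it was detected, its median was 81.1 TPM in saline-treated and 84.8 TPM in PTZ-treated cells. The median over all cells was 0 TPM in every group for both genes.

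**Figure D2:**
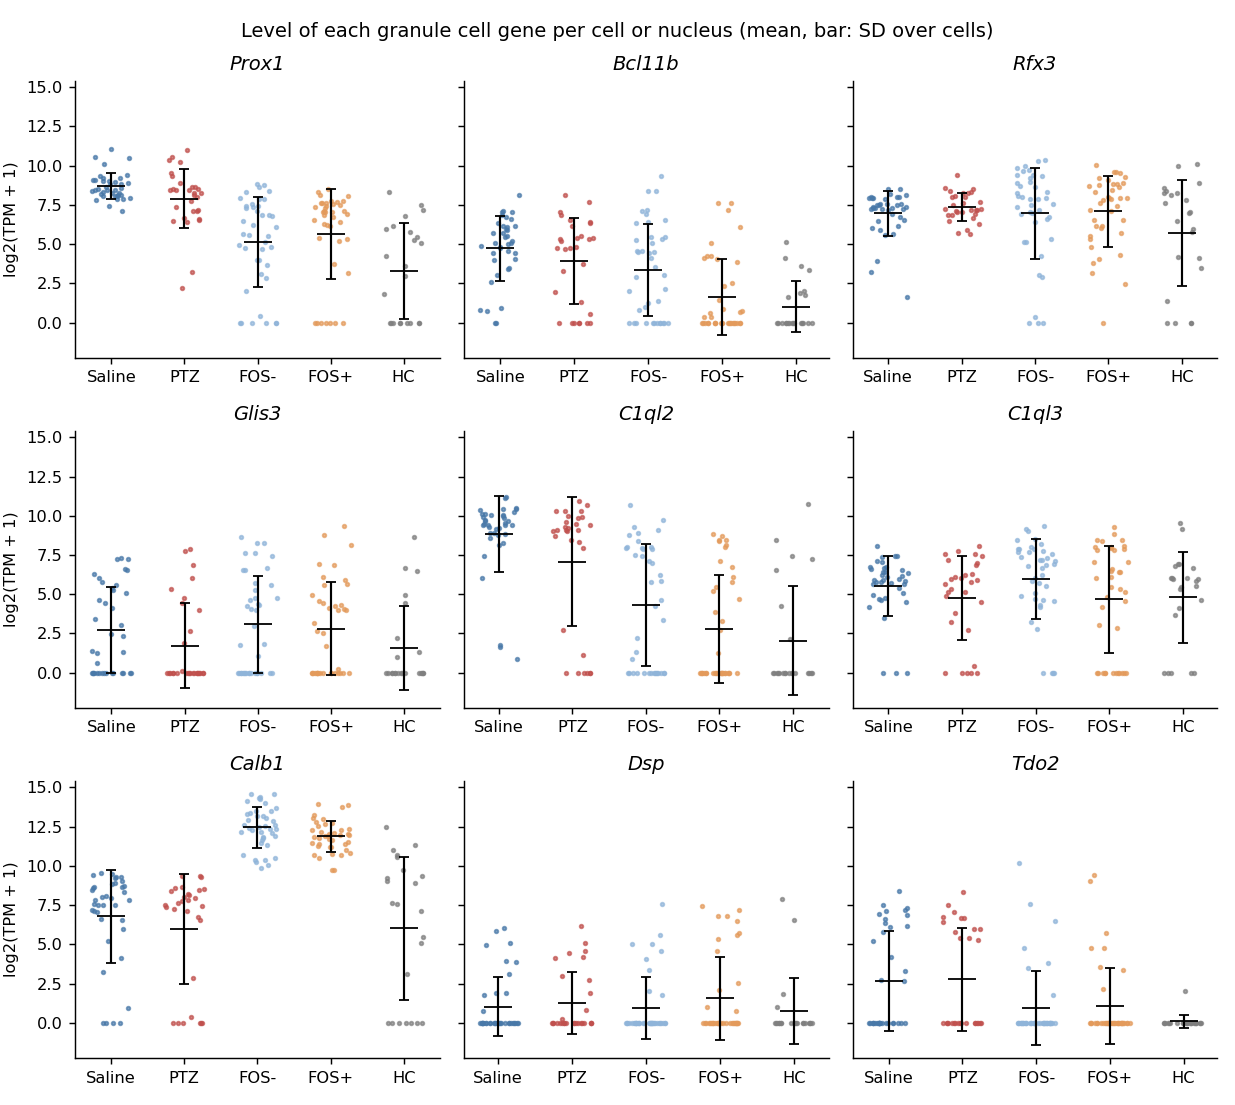
Level of each member as log2(TPM + 1) in each kept cell or nucleus of the 5 groups (points), with the mean (line) and the SD over cells (bar). *Calb1* forms a band near 12 in NE nuclei, *C1ql2* and *Prox1* lie high in whole cells, and *Dsp* and *Tdo2* are at 0 in most cells.

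**Figure D3:**
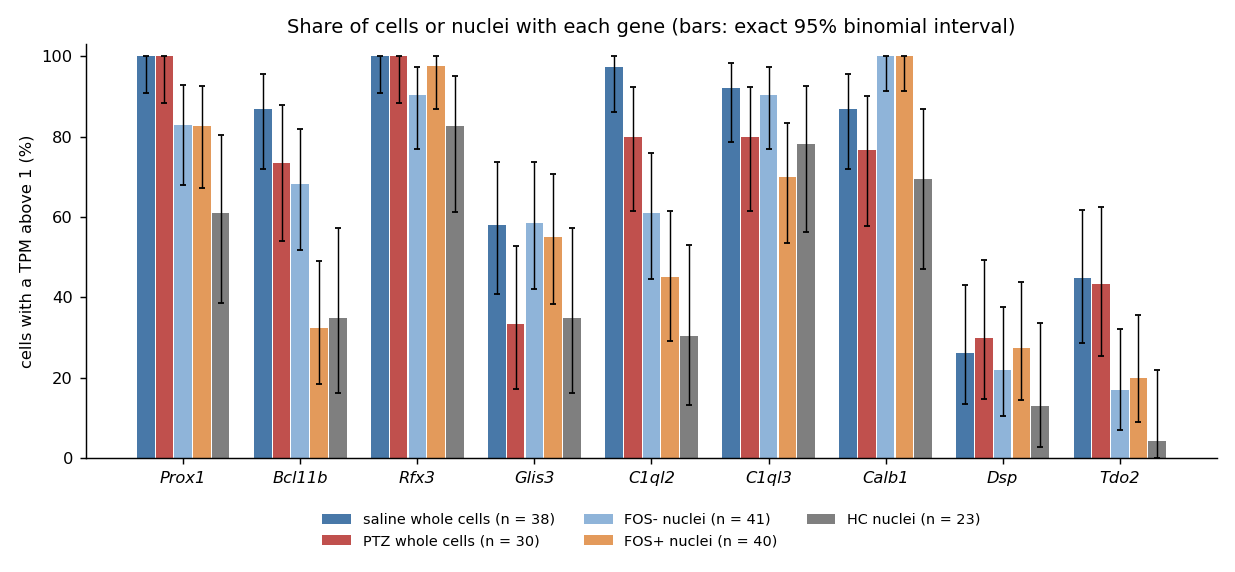
Share of kept cells or nuclei with a TPM above 1 (%) for each member and group, with exact 95% binomial intervals that cover counting error only. *Bcl11b* stands at 68.3% in FOS- and 32.5% in FOS+ nuclei, and *Calb1* at 100% in both.

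Ordered by mean log2(TPM + 1), saline-treated cells ran *C1ql2* (8.84 ± 2.40, SD, n = 38), *Prox1* (8.68 ± 0.84), *Rfx3* (6.96 ± 1.44), *Calb1* (6.80 ± 2.96), *C1ql3* (5.51 ± 1.90), *Bcl11b* (4.73 ± 2.06), *Glis3* (2.72 ± 2.76), *Tdo2* (2.64 ± 3.19) and *Dsp* (1.03 ± 1.89). *C1ql2* and *Prox1* stood above 98.6% and 98.4% of the 13748 genes ranked in the whole-cell table. FOS- nuclei began with *Calb1* (12.46 ± 1.31, n = 41), above 99.99% of 16387 genes, followed by *Rfx3* (6.95 ± 2.91), *C1ql3* (6.00 ± 2.55) and *Prox1* (5.15 ± 2.88). Of 40 gaps between neighbours in these orders over the 5 groups, 3 exceeded the larger SD of the pair, namely *Prox1* above *Rfx3* in saline-treated cells and *Calb1* above *Rfx3* in FOS+ and in FOS- nuclei. When the 5 groups were ordered for each member, 1 of 36 gaps did so. It was that of *Calb1* between FOS+ nuclei and saline-treated cells (11.88 against 6.80). This gap lies between tables, and its TPM values were divided by different lengths, with medians of 713 and 4104 bases.

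The members did not mark every cell together. The median number detected was 7 of 9 in saline-treated cells, 6 in PTZ-treated cells, 5 in FOS+ nuclei, 6 in FOS- nuclei and 4 in HC nuclei, and no kept cell lacked all of them. At least 7 members were found in 27 of 38 saline-treated and 13 of 30 PTZ-treated cells, in 10 of 40 FOS+ and 16 of 41 FOS- nuclei, and in 0 of 23 HC nuclei, where the most was 6. All 9 were found in 2 cells after saline, in 5 after PTZ and in 2 FOS- nuclei. *C1ql2* and *C1ql3* were detected together in 35 of 38 saline-treated cells but in 13 of 40 FOS+ nuclei, where 15 nuclei had *C1ql3* alone and 5 *C1ql2* alone.

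Across cells, the mean of the 9 members on the log2 scale ran with the number of genes detected (Pearson's r = 0.54, Spearman's rho = 0.67 over 68 whole cells, r = 0.61, rho = 0.58 over 81 NE nuclei) and less with the total count (rho = 0.21 and 0.15). These and the following correlations are descriptions over cells that share a preparation and differ in depth. Between single members the correlations were weak, with a median rho of 0.10 over 36 pairs in whole cells (range -0.38 to 0.44) and of 0.08 in NE nuclei (range -0.22 to 0.29). The genes most like the members' mean were *Rogdi* (rho = 0.63), *Crym* (0.61), *Fuom* (0.59), *Dnajb5* (0.59) and *Dbpht2* (0.56) among 5490 genes in whole cells, where the median gene had a rho of 0.13. In NE nuclei they were *Pgm2l1* (0.58), *Tbp* (0.58), *Pclo* (0.52), *Faim2* (0.51) and *Stxbp6* (0.50) among 4747 genes with a median of 0.12.

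The comparison of PTZ with saline asks whether a seizure 1 h earlier went with another level of the members. A gene was called when the group means of log2(TPM + 1) differed by at least 1, with no test. *C1ql2* was lower in PTZ-treated cells by this rule (7.06 ± 4.12, n = 30, against 8.84 ± 2.40, n = 38, difference -1.78), and 0 members were higher. Of 13748 genes compared, 8.47% were called lower and 4.09% higher, so 1 of 9 members is near the background, and on summed counts with TMM scaling (a normalization between libraries) the split of all genes was 7.89% lower and 10.3% higher. The SD within each group exceeded the difference. *C1ql2* was at 0 in 6 cells after PTZ and in 0 after saline, whereas its median among cells that had it was 602 TPM after PTZ and 712 TPM after saline. Of the 6 PTZ-treated cells without *C1ql2*, 4 also lacked *C1ql3* and 4 lacked *Bcl11b*. As a log2 ratio of summed counts in CPM the difference was -0.25, short of a call.

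The other factors and *Calb1* differed by less. *Glis3* (-0.9997, just short of the limit), *Bcl11b* (-0.82), *Calb1* (-0.82), *Prox1* (-0.79) and *C1ql3* (-0.75) had the lower mean after PTZ, and *Rfx3* (0.41), *Dsp* (0.21) and *Tdo2* (0.13) the higher. The members' median was -0.79, beside -0.06 for all genes compared. Removing any 1 of 31 of the 68 cells brought *Glis3* over the limit, and removing any of 4 saline-treated cells that were at 0 brought *Calb1* past it, to -1.003. PTZ-treated cells included shallower libraries. With the 23 of 30 PTZ-treated cells that were as deep as the saline-treated ones, *C1ql2* differed by -1.43, *Calb1* by -1.21, *Glis3* by -1.16, *C1ql3* by -1.11 and *Bcl11b* by -1.04, all past the limit, and *Prox1* by -0.10. In that setting 6.95% of all genes compared were called lower and 7.59% higher, beside 5 of 9 and 0 of 9 members, so the reading against the background depends on which cells are compared.

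**Figure D4:**
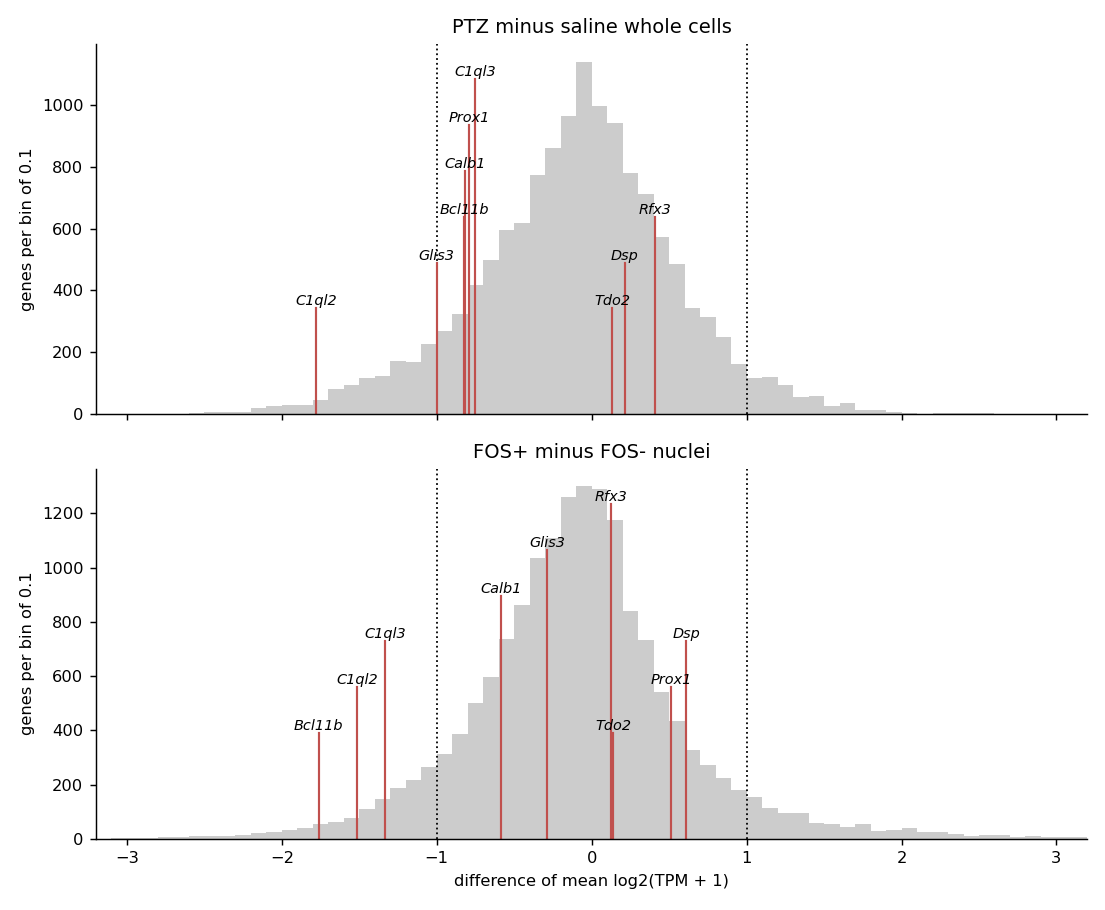
Number of genes by difference of mean log2(TPM + 1), in bins of 0.1, for PTZ minus saline whole cells and FOS+ minus FOS- nuclei, with red lines at the members and dotted lines at the limits of a call. *C1ql2* lies past the lower limit in both panels, *Bcl11b* and *C1ql3* in the lower panel, and no member passes the upper limit.

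Among 14 other genes known from granule cells, 5 were lower in PTZ-treated cells and 0 higher, with a median difference of -0.38. These were *Plk5* (-2.37), *Stxbp6* (-2.32), *Trpc6* (-1.68), a cation channel, *Synpr* (-1.56), a synaptic vesicle protein of mossy fibres, and *Lct* (-1.13). *Zbtb20*, a transcription factor of hippocampal neurons and among the highest of the list, differed by 0.43, and *Fam163b* by -0.44. Of the 4 genes for binding partners of the C1q-like proteins, the kainate receptor subunit *Grik2* was lower (-1.09) and *Grik4* higher (1.32), while *Adgrb3* (-0.33) and *Nrxn3* (0.43) were not called. Of the pan-neuronal markers, *Snap25* was lower (-1.06) and 4 of 5 lay below 0.

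Markers of other cells were called in both directions, and the part of such cells in the differences above was not tested. Of 9 pyramidal cell markers 5 could be compared, of which *Fibcd1* was higher (1.02, in 12 of 30 against 5 of 38 cells) and *Cpne4* lower (-1.20), and *Man1a* and *Nts* were at 0 in all whole cells. Their summed level per cell ran from 0 through a median of 65.2 to 330.1 TPM after saline and from 0 through 96.5 to 2441 TPM after PTZ. Of 6 markers of immature granule cells 4 could be compared, of which *Igfbpl1* (1.39) and *Calb2* (1.26), the calretinin gene, were higher after PTZ. Their summed level ran from 0 through 18.97 to 2097 TPM after saline and from 0 through 24.02 to 2336 TPM after PTZ. Of 9 interneuron markers 3 could be compared and *Adarb2* was lower (-1.09), and *Gad2*, *Slc32a1*, *Sst*, *Pvalb*, *Vip* and *Lhx6* were detected in 0 whole cells. The summed level of the list had a median of 217 TPM after saline (0.82 to 795) and 175 TPM after PTZ (0 to 659). *Gad1* was detected in 33 of 38 cells after saline and 21 of 30 after PTZ, and *Adarb2* in 30 of 38 and 20 of 30. With these 2 genes in most of the sorted cells, the sum is no measure of interneurons. Oligodendrocyte, astrocyte, microglia and endothelial lists held 0 called genes, with 2, 1, 0 and 1 genes compared. Single cells could still hold such markers. The summed astrocyte markers had a median of 0 TPM in both groups, with a highest value of 87.4 TPM after saline and 3830 TPM after PTZ. *Mbp*, of the oligodendrocyte list, was detected in 25 of 38 cells after saline and 16 of 30 after PTZ.

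The comparison of FOS+ with FOS- nuclei, within the NE table, asks how the members stood in nuclei with and without the activity marker. Before its own comparison the study set aside FOS+ nuclei that clustered with FOS- nuclei by expression. Such nuclei were not set aside here, so the contrast differs from that of the study. *Bcl11b*, *C1ql2* and *C1ql3* were lower in FOS+ nuclei and 0 members were higher. Of 16387 genes compared, 8.01% were called lower and 5.84% higher, and the members' median was -0.29 beside -0.09 for all genes. On summed counts with TMM scaling the split was 20.1% lower and 18.4% higher, with 1 of 9 members lower and 1 higher. Each SD again exceeded the difference.

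*Bcl11b* ran from 0 through a median of 10.9 to 657 TPM in FOS- nuclei and from 0 through 0 to 198 TPM in FOS+ nuclei. Its means were 3.36 ± 2.92 (n = 41) and 1.60 ± 2.42 (n = 40), a difference of -1.76. It was at 0 in 21 FOS+ and 12 FOS- nuclei, and the ranges overlapped. Summed over the nuclei it made up 146 CPM in FOS- and 62.7 CPM in FOS+ nuclei. One FOS+ nucleus held 36.97% of its FOS+ counts and one FOS- nucleus 20.9% of its FOS- counts, and without them the levels were 119 and 42.4 CPM. *C1ql2* had means of 4.30 ± 3.88 in FOS- and 2.78 ± 3.47 in FOS+ nuclei (-1.52), and pooled levels of 248 and 90.7 CPM. *C1ql3* had means of 6.00 ± 2.55 and 4.67 ± 3.41 (-1.33), and pooled levels of 306 and 184 CPM. As a log2 ratio of mean TPM, *C1ql3* differed by -0.33, short of a call, with *Bcl11b* at -1.58 and *C1ql2* at -1.26.

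The remaining members were not called. *Calb1* differed by -0.59 (11.88 ± 1.00 against 12.46 ± 1.31), *Glis3* by -0.29, *Rfx3* by 0.12, *Tdo2* by 0.14, *Prox1* by 0.51 and *Dsp* by 0.61. On summed counts in CPM *Dsp* reached 1.01, and 20.6% of its FOS+ counts came from 1 nucleus.

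NE nuclei were amplified under 4 conditions, with a template-switching oligo (TSO) at 1 or 10 µM and ERCC spike-ins diluted 1:200 or 1:2000, each holding 8 to 11 nuclei of each sort group. *Bcl11b* was lower in FOS+ nuclei in all 4 (-1.32, -2.39, -2.52 and -0.96), as was *Calb1* (-1.13, -0.15, -0.74 and -0.55). *C1ql2* was lower in 3, by -2.65, -2.26 and -2.44, and higher by 1.08 with 1 µM TSO and ERCC at 1:200, where 3 of 10 FOS+ and 2 of 10 FOS- nuclei had it. *C1ql3* was lower in 3, by -1.49, -2.53 and -1.43, and 0.10 higher with 10 µM TSO and ERCC at 1:200. *Prox1* was higher in 3 conditions and *Rfx3* in 2, the latter ranging from -1.56 to 1.78. The median of all genes compared was itself 0.23, -0.26, 0.05 and -0.40 in the conditions, in the order 1 µM at 1:200, 1 µM at 1:2000, 10 µM at 1:200 and 10 µM at 1:2000. With 1 µM at 1:2000 the -0.15 of *Calb1* thus lay above the median of all genes. The share of all genes lower in all 4 conditions was not computed.

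**Figure D5:**
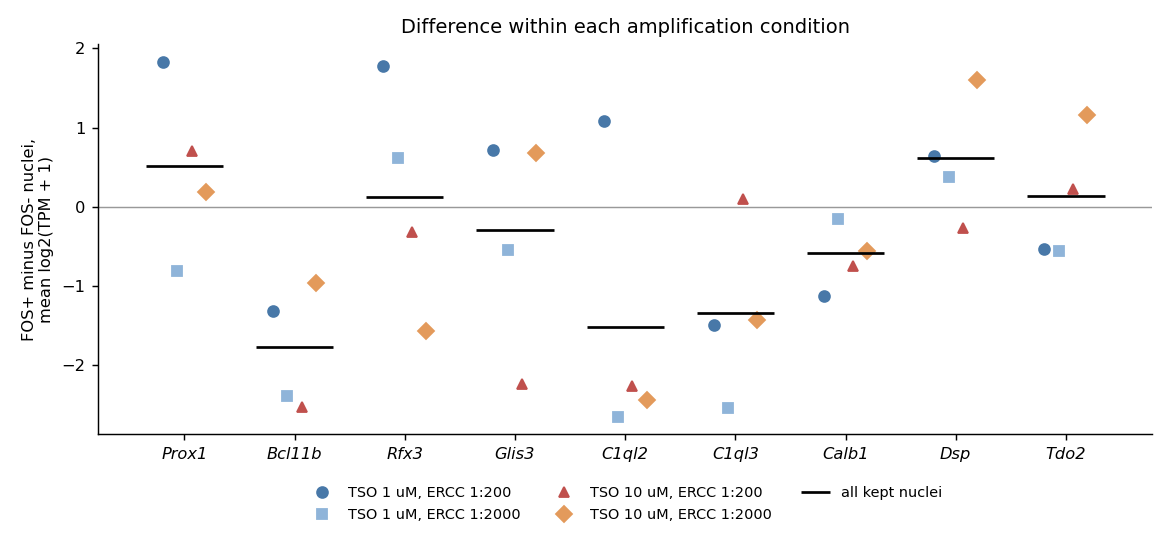
Difference of mean log2(TPM + 1), FOS+ minus FOS- nuclei, for each member within the 4 amplification conditions (symbols) and over all kept nuclei (black lines). *Bcl11b* and *Calb1* lie below 0 in all 4 conditions, *C1ql2* and *C1ql3* in 3 of 4, and the others lie on both sides of 0.

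Among the 14 other granule cell genes, 5 were lower in FOS+ nuclei, among them *Stxbp6* (-1.89), *Fam163b* (-1.41), *Plk5* (-1.33) and *Trpc6* (-1.30), and *Tiam1*, an activator of the GTPase RAC1, was higher (2.17). *Zbtb20* (-0.31) and *Dock10* (-0.15), among the highest of this list in nuclei, were not called. *Grik2* was lower (-1.36), and *Adgrb3* (-0.63), *Grik4* (-0.21) and *Nrxn3* (0.84) were not called. *Bcl11a*, the paralog of *Bcl11b*, was also lower (-1.25), with detection in 12 of 40 FOS+ and 25 of 41 FOS- nuclei. Of the other lists, *Gad1* (1.42) and *Mag* (1.12) were higher in FOS+ nuclei, the only calls among 7 interneuron and 5 oligodendrocyte genes compared, and 0 of 5 pan-neuronal, 3 immature and 5 pyramidal markers were called. The summed interneuron markers had a median of 114 TPM in FOS+ (0 to 1364) and 93.6 TPM in FOS- nuclei (0 to 7017), with *Slc32a1* and *Pvalb* at 0 in FOS+ nuclei and *Pvalb* in FOS- nuclei, and the summed oligodendrocyte markers 40.7 (0 to 1077) and 30.2 TPM (0 to 715), with *Sox10*, *Olig2* and *Mog* at 0 in FOS+ and *Olig2* in FOS- nuclei. *Gad1* was detected in 19 of 40 FOS+ and 15 of 41 FOS- nuclei and *Adarb2* in 32 of 40 and 30 of 41. The summed interneuron markers are therefore no measure of interneurons here either. The part of other cell types in the differences was not tested.

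Since FOS binds DNA as part of AP-1, the sequence before the start of *C1ql2*, the member called in both comparisons, is given. It is chr1:120340332-120340581 of GRCm38.p6 on the plus strand, the 250 bases before the RefSeq start.

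C1ql2 promoter: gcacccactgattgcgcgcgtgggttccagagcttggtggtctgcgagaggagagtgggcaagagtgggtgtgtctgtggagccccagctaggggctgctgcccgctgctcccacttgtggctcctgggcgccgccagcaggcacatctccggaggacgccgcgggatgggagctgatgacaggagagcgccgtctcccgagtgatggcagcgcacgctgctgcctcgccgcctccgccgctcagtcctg

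No AP-1 site (TGACTCA or its reverse complement TGAGTCA), CRE (TGACGTCA) or EGR site (GCGTGGGCG or CGCCCACGC) was matched in this window or in those of the 7 other members with an entry. Of 32851 promoters of the same length, 4.46%, 1.55% and 0.536% held these motifs. This says only that these letters are not in the windows.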

How the data were processed

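Expected counts and TPM values were deposited in a table each for whole cells, NE nuclei and HC nuclei. The authors trimmed reads and aligned them to GRCm38 (mm10) with Ensembl annotation by RSEM, with Bowtie 1.0.0 in the submitters' processing notes. The deposited expected counts are RSEM's estimates of reads per gene, without normalization, and the deposited TPM values are the same estimates divided by length and scaled within a cell by the authors. The Ensembl release is not given in the sources used here. Libraries do not mark strand.

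Each column was matched to its sample by the labels, and 0 columns were left unused. Cells were kept with a total count above 50000 and with more genes above 1 TPM than the mean minus 2 SD of their table. All HC nuclei were kept without these filters. The criterion on spike-ins was not applied. A count of 3 is between 5.85e-05% and 0.00470% of a kept cell's total. Pairs of columns correlated at most at 0.916, so none was treated as a repeat.

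Levels are means of log2(TPM + 1), with a pseudocount of 1, and differences on this scale understate those of low genes. Genes with a TPM above 1 in at least 5 of the cells compared were called at a difference of at least 1. Named are all 9 members, the called genes and the highest genes of each list, and the 5 genes most like the members among those in at least 50% of cells. Implied lengths used genes of at least 1000 bases with 1 transcript in GENCODE M21, a count of at least 20 and a TPM above 5. Intervals are exact (Clopper-Pearson, scipy 1.17.1). The members and lists were chosen with earlier results of these data known. Alternatives included other pseudocounts, filters and pooled counts with TMM factors from edgeR 4.0.16, and, after seeing the data, pooled levels without the cell holding most of a gene's counts, and the call rule was tested on simulated data. Some genes of the lists are not reported here.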

Additional observations from a re-analysis of the deposited data

How the results depend on the processing

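For PTZ against saline, the count of members called lower was 1 as reported. It was 5 with a pseudocount of 0.1 TPM (17.05% of all genes), 2 with the mean of log2(CPM + 1) (7.91%), 0 with the log2 ratio of mean TPM (11.7%) and 5 with PTZ-treated cells as deep as the saline-treated ones (6.95%), the last and the CPM scale having been chosen after seeing the data. Leaving out each cell in turn gave between 1 and 3. With the cells that the filter removed included, 3.53% of all genes were called lower and 4.19% higher, beside 8.47% and 4.09% as reported. For FOS+ against FOS-, the count called lower was 3 as reported, 1 on summed counts with TMM scaling (*C1ql2*, 20.1% of all genes) and 0 with a pseudocount of 10 TPM (1.62%), and leaving out each nucleus gave 3 throughout. The count called higher was 0 as reported. It was 1 (*Dsp*) with the log2 ratio of mean TPM (13.4% of all genes), on summed counts in CPM (14.7%) and with TMM scaling (18.4%), 3 within 1 µM TSO and ERCC at 1:200 (*Prox1*, *Rfx3* and *C1ql2*, 27.3%) and 2 within 10 µM TSO and ERCC at 1:2000 (*Dsp* and *Tdo2*, 11.7%). *C1ql2* turned to 1.08 in the first of these conditions and *C1ql3* to 0.10 with 10 µM TSO and ERCC at 1:200. The cause was not tested. The log2 ratio of mean TPM moved the median of all genes from -0.09 to -0.20 in nuclei, and TMM scaling moved it to 0.03. The median number of members detected moved by at most 1 gene under every alternative tried, and 207 alternative shares of cells with a member stayed within the interval of the share reported while 9 did not.

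No paired analysis was possible because the labels carry no replicate numbers that tie cells of different groups and no test was run. For PTZ and saline, mouse, preparation and treatment cannot be told apart. FOS+ and FOS- nuclei shared an isolation, but whatever the numbers in their titles mark cannot be told apart from the sort group. A low gene missed in a shallow nucleus cannot be told from one that is absent, and *Glis3*, *Dsp* and *Tdo2* are most exposed to this. Doublets were not called.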

Other observations

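Among relatives of the members, *Rfx7* showed the opposite placing to *C1ql2*, being found in 39 of 40 FOS+ and 41 of 41 FOS- nuclei but in 14 of 38 saline-treated and 11 of 30 PTZ-treated cells. *C1ql1* was detected in 1 PTZ-treated cell and 1 FOS+ nucleus and *C1ql4* in 0 kept cells. Of 12 desmosome genes besides *Dsp*, 7 or 8 were not detected in each group, among them *Dsc1*, *Dsc2*, *Dsc3*, *Pkp1* and *Pkp3*. *Pkp4*, *Pkp2*, *Jup* and *Dsg2* were found in every group, and *Pkp2* (-1.56) and *Dsg2* (-1.03) were lower in FOS+ nuclei. Of 9 other genes of tryptophan metabolism, *Haao* and *Tph2* were detected in no group, 0 of 7 compared were called in nuclei, and the 1 compared in whole cells, *Afmid*, was found in 2 of 38 and 3 of 30 cells. *Prox1os*, an antisense gene that overlaps *Prox1* by 133 exonic bases, held 28.9% of the reads of the pair in saline-treated cells, 30.4% in PTZ-treated cells, 3.86% in FOS+ nuclei, 13.5% in FOS- nuclei and 3.33% in HC nuclei.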
